A study of Mus musculus with 22 samples.

Results

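Granulation tissue of Mmp13-/- mice was compared with that of WT mice 14 d after a viscose cellulose sponge had been placed under the skin of the back, a model in which new connective tissue and vessels grow into an implanted scaffold. The comparison holds 8 of the 22 Affymetrix mouse arrays of the series, 4 of Mmp13-/- and 4 of WT tissue, and an array belongs to it by its labelled genotype and day. The mice were male and 5 to 8 weeks old, no further agent was given to either group, and each array is of a different mouse according to the design text. Mmp13-/- mice lack the gene in all of their cells. The labels give a mixed C57BL/6 x 129 background for both genotypes, while the design text states that the knockout had been crossed back to C57BL6 for at least 7 generations and that the WT mice came from the same heterozygous stock. Replicates 1 to 3 of each genotype belong to hybridization series 1 (2 µg of RNA) and replicate 4 of each to series 2 (250 ng of RNA and another labelling kit).

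MMP-13 (collagenase-3) is a secreted zinc proteinase that cuts fibrillar collagens and other matrix proteins. Granulation tissue is the provisional tissue of a healing wound, in which fibroblasts lay down collagen and proteoglycans, macrophages and neutrophils clear debris, and capillaries sprout and later regress. Matrix metalloproteinases (MMPs) work there as a network with their inhibitors, and several of them, MMP-13 included, are encoded side by side in 1 gene cluster.

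Mmp13 itself was looked at first, to see whether the labels hold. Its RMA signals, on the log2 scale, were 8.33, 7.91, 8.51 and 8.48 on the Mmp13-/- arrays (replicates 1 to 4 here and below) and 11.87, 11.58, 11.68 and 11.74 on the WT arrays. All 4 Mmp13-/- arrays lay far below all 4 WT arrays, and the WT mean was 10.6-fold higher on the linear scale (difference -3.41, standard error 0.13, adjusted p = 2.04e-05 from limma). The probe set still gave a signal well over the median signal of the arrays (4.16 to 4.26) in Mmp13-/- tissue, and the sources used here do not say whether its target sequence was deleted. Across probe sets, arrays of the same genotype and series correlated at r = 0.994 to 0.996, arrays of different genotype in the same series at 0.988 to 0.995, and arrays of different series at 0.976 to 0.983. Markers of fibroblasts (mean log2 signal of 15 genes 10.27 to 10.93 over the arrays) and of macrophages (16 genes, 9.78 to 10.07) were present on all arrays. Markers of epidermis and muscle varied between arrays. The mean of 23 keratinocyte markers was 4.46 and 5.36 on WT replicates 1 and 3 and 3.38 to 3.57 on the other arrays, and the mean of 16 skeletal muscle markers was 6.76 on Mmp13-/- replicate 3 and 8.37 to 9.82 elsewhere. In such bulk tissue, fewer cells of a type and less RNA per cell cannot be told apart.

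With hybridization series as a covariate, 26 probe sets of 45037 differed between the genotypes at a Benjamini-Hochberg adjusted p under 0.05 (limma), or 0.0577% of those tested. Of these, 7 were higher (0.0155%) and 19 lower (0.0422%) in Mmp13-/- tissue. Genes with reduced signal in Mmp13-/- tissue included the proteinases Mmp2 and Mmp3, the collagen-associated proteins Lum and Abi3bp, the globins, and the acute phase gene Lrg1, while Npy and Gpt2 were raised. On 21 of the 26 probe sets the 4 Mmp13-/- arrays did not overlap the 4 WT arrays, against 1.62% (all above) and 1.9% (all below) of all probe sets. The 26 were called on the same values, so this describes the calls and is no separate support for them. Without the adjustment, a p under 0.05 was found for 2469 higher (5.48%) and 2418 lower (5.37%) probe sets, and with an absolute log2 difference over 0.75 as well, 25 were higher (0.0555%) and 105 lower (0.233%). A gene is represented below by its brightest probe set, which gives 12 called genes of 18193 (0.066%), 2 higher (0.011%) and 10 lower (0.055%). With an unadjusted p under 0.05, 6.55% of all genes were lower and 4.55% higher, and the counts over gene lists below are to be read against these shares.

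Most of the 26 calls lay close to the threshold. Only 7 probe sets (Npy, Mmp13, both of Mmp2, 1 of Rcn1 and a pair of unnamed probe sets) were called in each of the 8 fits that left out 1 array, and the other 19 in 0 to 6 of them, although all 26 kept their sign in every such fit. The number of calls was 14, 7 and 9 without WT replicates 1, 2 and 3, and 12, 11 and 10 without Mmp13-/- replicates 1, 2 and 3. It was 45 without replicate 4 of either genotype, which leaves series 1 alone. When all 22 arrays entered 1 fit, 8 were called (0.0178%), 6 of them among the 26 (Mmp13, both probe sets of Mmp2, Lum, Rcn1 and the second of the unnamed pair). With the replicate number as a block, 3 were called (Npy, Mmp13 and the first of the unnamed pair), and the adjusted p of the other 23 ran from 0.0514 to 0.253. Without WT replicates 1 and 3 together, a fit chosen after the keratinocyte signals had been seen, all 26 kept their sign and an unadjusted p under 0.05, and 7 probe sets were called, 3 of them among the 26.

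**Figure D1:**
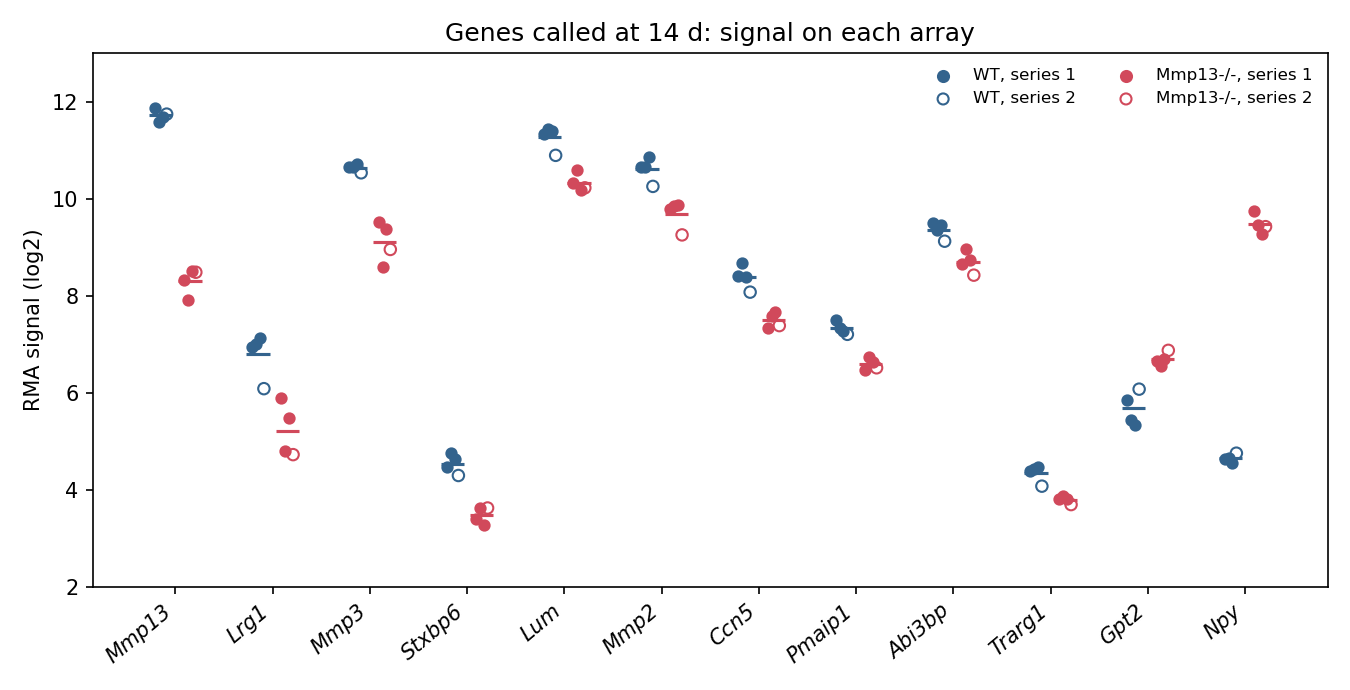
RMA signal (log2) on each of the 8 arrays for the 12 genes called at 14 d, ordered by their difference; filled points are series 1, open points series 2 (replicate 4), and bars are group means. For all 12 genes the 4 Mmp13-/- arrays lie wholly on 1 side of the 4 WT arrays, from Mmp13 (8.31 against 11.72 on average) to Npy (9.47 against 4.64).

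Of the other MMP genes, Mmp2 and Mmp3 were called, both lower in Mmp13-/- tissue. Of 16 measured MMP genes, 13 had a negative difference and 5 a negative one with an unadjusted p under 0.05 (31.25%, against 6.55% of all genes), and 0 the opposite. The median of the list was -0.10, against 0.00 over all genes. Mmp2 encodes gelatinase A, which is made largely by fibroblasts. Its brighter probe set read 9.79, 9.84, 9.87 and 9.25 in Mmp13-/- and 10.65, 10.65, 10.86 and 10.25 in WT tissue. The groups did not overlap, although replicate 4 was the lowest of both. The difference was -0.92 (standard error 0.07, adjusted p = 0.00411), the second probe set gave -0.94 (adjusted p = 0.00185), and both kept their calls in each of the 8 fits that left out 1 array.

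Mmp3, which encodes stromelysin-1, an enzyme of broad substrate range that also activates other pro-MMPs, read 9.52, 8.59, 9.37 and 8.95 in Mmp13-/- tissue and 10.64, 10.65, 10.71 and 10.53 in WT tissue. The WT arrays lay close together and the Mmp13-/- arrays were scattered below them. The difference was -1.52 (standard error 0.18, adjusted p = 0.0350), or 2.88-fold, and its adjusted p ran from 0.00891 to 0.336 over the alternatives. The call was lost without any 1 WT array and without Mmp13-/- replicates 3 or 4 (adjusted p up to 0.133), and kept without Mmp13-/- replicates 1 or 2. The other 3 members were lower with an unadjusted p under 0.05 only. They were Mmp10 or stromelysin-2 (-0.49, adjusted p = 0.260), the neutrophil collagenase Mmp8 (-0.53, adjusted p = 0.302) and the gelatinase B gene Mmp9 (-1.02, standard error 0.37, adjusted p = 0.393). Mmp9 was 7.70, 8.39, 7.89 and 8.12 in Mmp13-/- tissue and 9.78, 9.30, 7.80 and 9.28 in WT tissue, so that WT replicate 3 lay among the Mmp13-/- arrays. The macrophage elastase Mmp12 (0.10) and the membrane-anchored collagenase Mmp14 (-0.12) did not pass the unadjusted threshold.

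Mmp3, Mmp10 and Mmp8 lie in the gene cluster of Mmp13, and the 10 measured genes on each side of Mmp13 were therefore listed in their order along chromosome 9. Of these 20 genes, 16 had a negative difference and 8 a negative one with an unadjusted p under 0.05 (40%, against 6.55% of all genes). Mmp3, Mmp10 and Mmp8, which prompted the list, are among these 8 and were already counted with the MMP genes. The share is therefore partly fixed by that choice and is not separate from the MMP count. Apart from Mmp3, none was called. Casp4, which encodes an inflammatory caspase that senses bacterial lipopolysaccharide, read 6.21, 5.95, 5.58 and 6.67 in Mmp13-/- and 7.87, 7.61, 7.44 and 7.44 in WT tissue. The arrays did not overlap (-1.49, standard error 0.20), and the adjusted p was 0.0532 in the fit of the 14 d arrays and 0.00438 in the fit of all 22. At 7 d and 21 d its differences were -1.73 and -1.39. Pdgfd, a ligand of the PDGF-beta receptor, read 4.63, 4.42, 4.01 and 4.08 against 5.26, 5.26, 5.79 and 5.72 (-1.22, standard error 0.18, adjusted p = 0.0725), again without overlap, with -1.29 at 7 d and -1.51 at 21 d. Of its 3 probe sets, 1 had the other sign at 14 d. Between Casp4 and Pdgfd lies Casp12, with -0.28 (adjusted p = 0.290). The differences did not run evenly with distance, since Mmp12, Dcun1d5 and Mmp1b, the nearest measured genes, had 0.10, -0.11 and 0.06. On the outer edge Kbtbd3 was the only gene of the 20 that was higher with an unadjusted p under 0.05 (0.39, adjusted p = 0.188). It was singled out after its value had been seen.

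**Figure D2:**
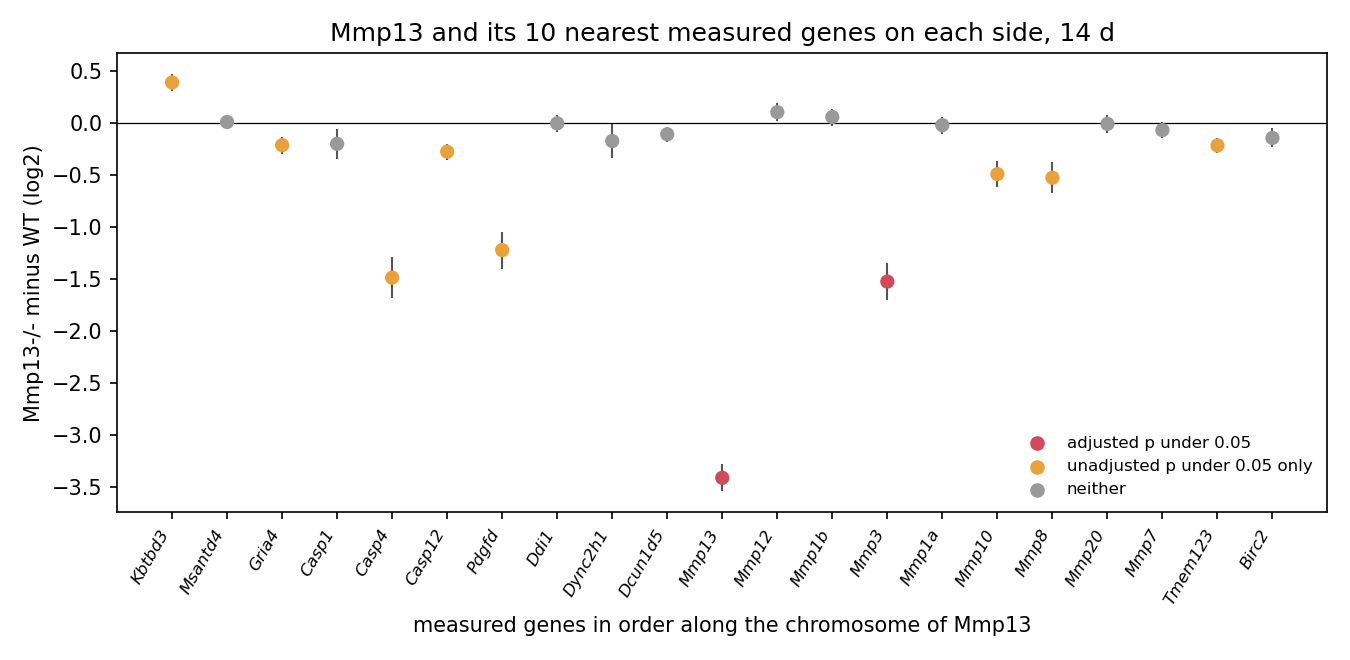
Difference in log2 signal (Mmp13-/- minus WT at 14 d, bars are standard errors from limma) of Mmp13 and the 10 nearest measured genes on each side, in their order along the chromosome. Casp4 (-1.49), Pdgfd (-1.22) and Mmp3 (-1.52) are the lowest after Mmp13 (-3.41), with genes near 0 between them.

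The start regions of Mmp13, Mmp3 and Mmp10, whose signals were all lower, are shown because a short motif recurs in them, although not in all lower genes of the cluster. The AP-1 motif TGANTCA (N is any base, and its reverse complement has the same pattern) is bound by Fos and Jun proteins. In the RefSeq windows of GRCm38.p6, which run from 250 bases before to 50 bases after a gene's start and lie on the plus strand here, it occurs once in each of these 3 and begins 35, 46 and 63 bases before the start. Capitals mark the motif.
Mmp13, chr9:7272264-7272563: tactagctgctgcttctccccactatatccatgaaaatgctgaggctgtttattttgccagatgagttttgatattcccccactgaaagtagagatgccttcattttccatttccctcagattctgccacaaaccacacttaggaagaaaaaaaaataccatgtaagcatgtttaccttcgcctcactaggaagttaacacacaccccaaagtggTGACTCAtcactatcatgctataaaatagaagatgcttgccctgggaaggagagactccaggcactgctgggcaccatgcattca
Mmp3, chr9:7445572-7445871: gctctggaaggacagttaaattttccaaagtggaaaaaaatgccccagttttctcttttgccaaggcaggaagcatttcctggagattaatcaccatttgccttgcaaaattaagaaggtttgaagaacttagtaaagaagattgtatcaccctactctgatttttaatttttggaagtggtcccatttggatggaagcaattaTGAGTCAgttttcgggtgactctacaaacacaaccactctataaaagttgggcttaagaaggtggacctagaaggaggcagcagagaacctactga
Mmp10, chr9:7502092-7502391: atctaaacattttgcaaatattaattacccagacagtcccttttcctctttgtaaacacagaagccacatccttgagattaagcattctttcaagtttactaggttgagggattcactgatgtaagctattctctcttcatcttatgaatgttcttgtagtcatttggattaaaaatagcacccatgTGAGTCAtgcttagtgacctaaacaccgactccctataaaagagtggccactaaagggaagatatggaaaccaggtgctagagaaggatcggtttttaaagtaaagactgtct
The motif occurs in 7 of the 17 MMP genes with a window, all on chromosome 9, and in 8.97% of all genes with a window (7.81% of all windows). The windows of Mmp8 and Casp4, whose signals were lower as well (-0.53 and -1.49), do not hold it. Mmp12, Mmp7, Mmp1a and Mmp20 hold it as well, with differences of 0.10, -0.07, -0.02 and -0.01, none past the unadjusted threshold. A match of letters is a description and not a site of binding.

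Among other proteinases and their inhibitors, no gene was called. Of 21 ADAM and ADAMTS proteinases 11 had a negative and 10 a positive difference, and the median was -0.02. With an unadjusted p under 0.05, 4 were lower (19.0%, against 6.55% of all genes) and 1 higher (4.76%, against 4.55%). The aggrecanase genes Adamts15 (-0.48, adjusted p = 0.233) and Adamts5 (-0.31, adjusted p = 0.262) were lower at that level, and the dim Adamts20 (2.29, 2.70, 2.35 and 2.64 against 1.96, 1.97, 2.25 and 2.23) was higher (0.39, adjusted p = 0.293). The dimmer probe sets of Adamts5 had -0.1375, -0.105 and 0.185, none past the unadjusted threshold. Of 23 proteinase inhibitors, 8 were lower with an unadjusted p under 0.05 (34.8%, against 6.55% of all genes) and 0 higher. Serpina3n, an acute phase inhibitor of serine proteinases, read 6.19, 6.19, 5.80 and 5.64 in Mmp13-/- and 7.53, 8.80, 7.23 and 7.81 in WT tissue. All Mmp13-/- arrays lay below all WT arrays by a wide margin, but the scatter of the WT arrays left an adjusted p of 0.0955 (-1.89, standard error 0.30). It was 0.0290 without WT replicates 1 and 3 together (-2.51) and 0.0880 to 0.490 under the other alternatives. Timp1, the main inducible inhibitor of the MMPs, had -0.50 (adjusted p = 0.264), and Tfpi2, a Kunitz-type inhibitor held in the matrix, had -0.44 (adjusted p = 0.183).

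The largest rise was in Npy, which encodes neuropeptide Y, a sympathetic transmitter that also acts on vessels and immune cells. Its signals were 9.75, 9.45, 9.26 and 9.42 in Mmp13-/- and 4.62, 4.66, 4.54 and 4.75 in WT tissue. At 14 d the groups were thus separated by far more than their spread, with a difference of 4.83 (standard error 0.11, adjusted p = 3.10e-07) or 28.4-fold. An exact permutation test of the 4 against 4 arrays gave 0.0286 (two-sided), the smallest value this design allows. Every probe set whose groups do not overlap reaches that value. Of all probe sets, 1.62% had all Mmp13-/- arrays above and 1.9% all below the WT arrays. Npy was singled out on the same values, so this test adds no support of its own. The other days showed that the level was not tied to genotype in this way. Over all 22 arrays Npy lay either at 3.99 to 4.84 (8 arrays) or at 8.42 to 9.93 (14 arrays), with none between. WT tissue was in the high range in 2 of 3 mice at 7 d and in 3 of 4 at 21 d, and Mmp13-/- tissue in 3 of 3 and in 2 of 4. With all 22 arrays in 1 fit the adjusted p at 14 d was 0.549, and the difference changed from 14 d to 21 d with an unadjusted p of 0.00262 (adjusted p = 0.588).

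Separate levels among mice were also seen in other probe sets. The first of the unnamed pair read 6.83, 6.29, 6.62 and 5.47 in Mmp13-/- tissue and 2.41, 2.32, 2.53 and 2.23 in WT tissue (3.93, adjusted p = 4.90e-05). Its high range, from 5.14 upwards, held all 7 Mmp13-/- arrays of 7 d and 14 d, Mmp13-/- replicates 2 and 3 of 21 d and 1 WT array, replicate 3 of 21 d. Those 2 Mmp13-/- arrays of 21 d were also the ones with high Npy. The second of the pair followed the same arrays (2.55, adjusted p = 0.00287). Ifi202b, an interferon-inducible gene of the DNA-sensing family, was split within the Mmp13-/- group, at 2.71 and 3.01 in replicates 1 and 2 and at 9.64 and 9.59 in replicates 3 and 4, while the WT arrays of 14 d read 2.71 to 3.40. Its difference of 3.27 carried a standard error of 1.46 and was not called (adjusted p = 0.465). Cadm1, a cell adhesion molecule, was split within the WT group of 14 d instead. It read 8.88 and 8.75 in WT replicates 1 and 3, 5.69 and 6.51 in WT replicates 2 and 4, and 8.55 to 9.31 in Mmp13-/- tissue (1.5, standard error 0.66, adjusted p = 0.461). At the other days all 7 Mmp13-/- arrays lay in its high range, from 8.55 upwards, and 0 of 7 WT arrays did, with differences of 2.83 (7 d, adjusted p = 0.929) and 2.21 (21 d, with a smaller adjusted p, 0.0363). WT replicates 1 and 3 of 14 d are the arrays with the most keratinocyte signal, and without both of them the difference was 3.01 (adjusted p = 0.0188). The part of those markers in it was not tested.

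**Figure D3:**
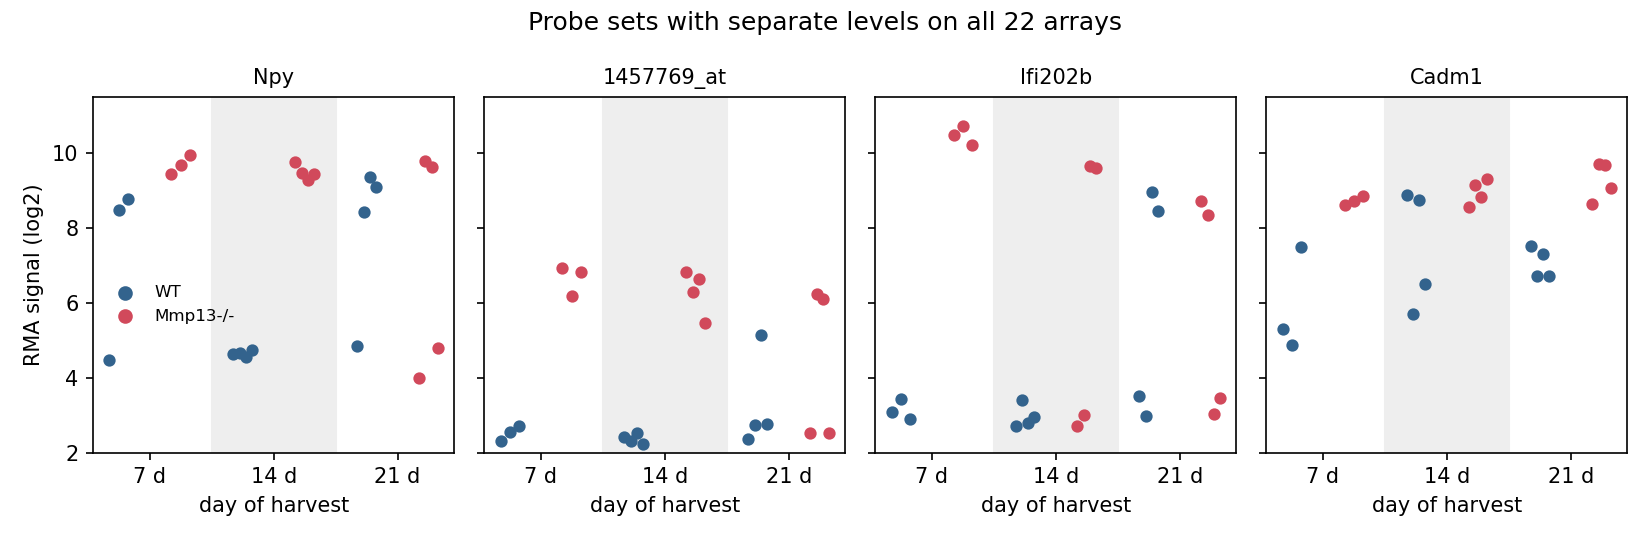
RMA signal (log2) of Npy, the first of the unnamed pair of probe sets, Ifi202b and Cadm1 on all 22 arrays by day, WT in blue and Mmp13-/- in red, with 14 d shaded. Npy separates the genotypes fully at 14 d (9.26 to 9.75 against 4.54 to 4.75) but has high and low arrays of WT at 7 d and of both genotypes at 21 d.

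Gpt2 was the other gene that rose, and it did so without such a split. It encodes the mitochondrial alanine aminotransferase. The brightest of its 4 probe sets read 6.65, 6.54, 6.70 and 6.87 in Mmp13-/- and 5.84, 5.44, 5.34 and 6.07 in WT tissue (1.02, standard error 0.12, adjusted p = 0.0347). Of the other 3 probe sets, 2 were called as well (1.06 and 0.85), and the fourth was higher with an unadjusted p under 0.05. The rise recurred with unadjusted p-values of 0.00874 at 7 d (0.93) and 0.00189 at 21 d (1.42). The call was lost in 5 of the 8 fits that left out 1 array, those without WT replicates 2 or 3 and without Mmp13-/- replicates 1, 2 or 3, with an adjusted p of at most 0.133 there.

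Matrix genes were lower in many members, though few were called. Of 27 matricellular and adhesive matrix proteins, secreted proteins that bind cells and collagen without forming the main fibres, 21 had a negative difference and 17 a negative one with an unadjusted p under 0.05 (63.0%, against 6.55% of all genes), 0 the opposite, and the median was -0.36. The count at that level was 13 without Mmp13-/- replicate 3 and without WT replicates 1 and 3, 14 in series 1 alone and with the replicate block, and 11 in the fit of all 22 arrays. That 11 is 40.7% of the list, against 2.96% of all genes in the same fit. In the other fits named, 5.19% to 6.36% of all genes were lower at that level. Only Ccn5, a CCN-family protein known to restrain smooth muscle growth, was called. Its signals were 7.34, 7.57, 7.67 and 7.38 in Mmp13-/- and 8.40, 8.67, 8.39 and 8.07 in WT tissue, without overlap (-0.89, standard error 0.10, adjusted p = 0.0356). The call of Ccn5 was kept in 2 of the 8 fits that left out 1 array (adjusted p up to 0.133). In the fit of all 22 arrays its adjusted p was 0.490. The tenascin Tnxb, which organises collagen fibrils, read 6.07, 6.29, 5.22 and 6.98 against 7.31, 7.67, 8.09 and 7.15. Its difference was -1.42 (adjusted p = 0.235), but -1.83 in series 1 and -0.17 in the single pair of series 2. Thbs3 of the thrombospondins had -0.89 (adjusted p = 0.184), vitronectin (Vtn) -0.77 (adjusted p = 0.102) and Matn2 -0.60 (adjusted p = 0.175), each with all Mmp13-/- arrays below all WT arrays. A dimmer probe set of Vtn had the other sign (0.08).

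Small leucine-rich proteoglycans, which coat collagen fibrils and set their diameter, were lower in 7 of 13 cases with an unadjusted p under 0.05 (53.8%) and higher in 1 (7.69%). Lum (lumican) read 10.32, 10.59, 10.17 and 10.22 in Mmp13-/- and 11.34, 11.44, 11.40 and 10.89 in WT tissue. The groups did not overlap, the lowest WT array being that of series 2, and the difference was -0.94 (standard error 0.11, adjusted p = 0.0347, and 0.0274 in the fit of all 22 arrays). Its call was kept in 2 of the 8 fits that left out 1 array (adjusted p up to 0.133). With the replicate block the call was lost (adjusted p = 0.159). Decorin (Dcn) read 12.05, 12.03, 11.97 and 12 against 12.44, 12.47, 12.54 and 12.29 (-0.42, adjusted p = 0.100), while a second probe set of it had the opposite sign. Asporin (Aspn) had -0.58 (adjusted p = 0.183). Fibromodulin (Fmod) was the member that was higher (0.92, unadjusted p = 0.00995).

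Of 30 collagens of all types, 18 were negative, 7 were lower with an unadjusted p under 0.05 (23.3%) and 1 was higher, and the median was -0.08. Col14a1, a collagen that sits on the surface of fibrils, had -0.70 (adjusted p = 0.288), the transmembrane collagen gene Col23a1 -0.51 (adjusted p = 0.243) and Col5a2, a chain that starts fibrils, -0.27 (adjusted p = 0.259). Of the main fibril chains, Col1a1 (-0.35, adjusted p = 0.327) and Col3a1 (-0.20, adjusted p = 0.335) were among the lower members, and Col1a2 had -0.07. Of 18 elastic fibre proteins 7 were lower at the unadjusted level (38.9%), led by Fbln7 (-1.14, adjusted p = 0.105), and Ltbp2, which binds microfibrils, was higher (0.46, adjusted p = 0.152). Loxl1 (-0.33) and Pcolce (-0.30), which cross-link and trim collagen, and Lama4 (-0.38) and Col18a1 (-0.48) of vascular basement membranes were lower at that level too.

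Fibroblast markers overlap with these lists. Of 15 such markers, 14 were negative and 9 lower with an unadjusted p under 0.05 (60%), with a median of -0.34. Without WT replicates 1 and 3 the count was 6 and the median -0.35, and in series 1 alone 9 and -0.31. Their mean per array was 10.27 to 10.44 in Mmp13-/- and 10.57 to 10.93 in WT tissue, so that the groups did not overlap. In contrast, 0 of 15 markers of myofibroblasts and smooth muscle passed the unadjusted threshold in either direction, and Acta2, which encodes alpha smooth muscle actin, had 0.06 (unadjusted p = 0.691). Outside the lists, Abi3bp, a collagen-binding matrix protein, read 8.66, 8.95, 8.74 and 8.42 in Mmp13-/- and 9.50, 9.36, 9.45 and 9.12 in WT tissue. The groups did not overlap (-0.67, standard error 0.08, adjusted p = 0.0431), but the call was lost whichever array was left out (adjusted p up to 0.138). A dim probe set of Rcn1, a calcium-binding protein of the endoplasmic reticulum, read 3.22, 3.13, 3.20 and 2.80 against 4.37, 4.22, 4.33 and 3.67 (-1.06, adjusted p = 0.00185), and its call held in each of these fits.

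**Figure D4:**
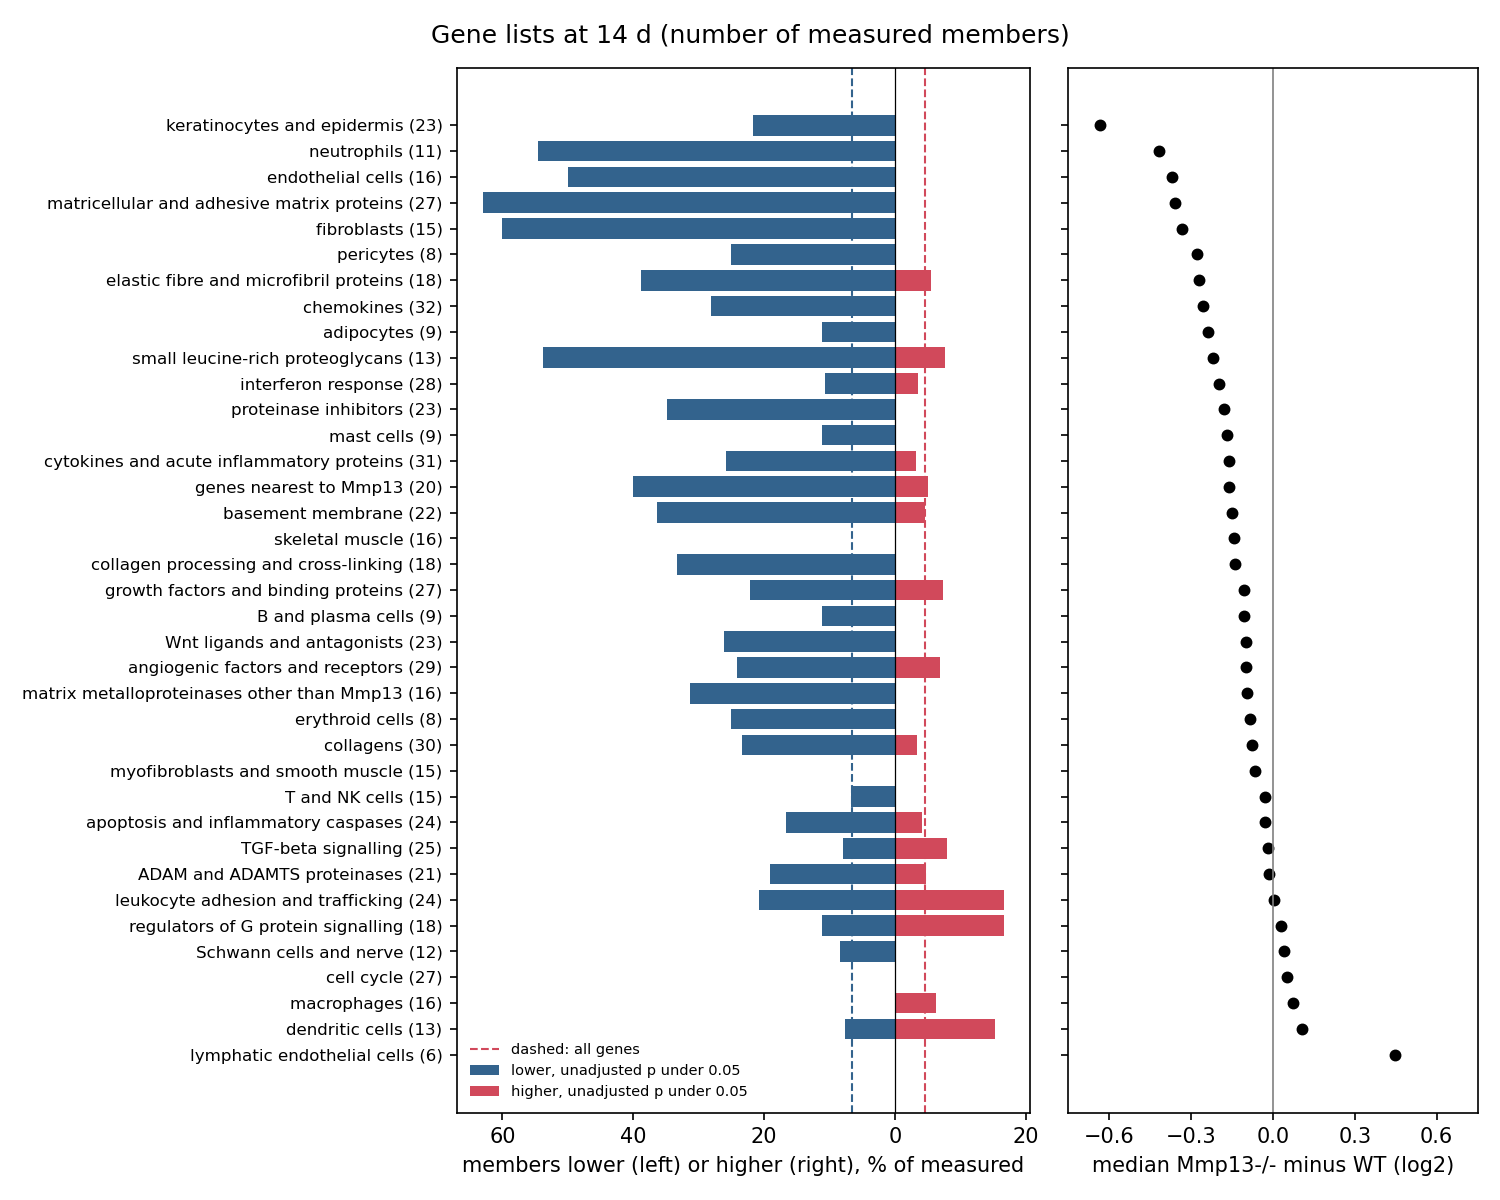
Left, share of measured members of each gene list that were lower (blue, to the left) or higher (red, to the right) in Mmp13-/- tissue with an unadjusted p under 0.05, with dashed lines for all genes (6.55% lower, 4.55% higher); right, median difference (log2) of the list. Matricellular proteins (63.0%), fibroblasts (60%), neutrophils (54.5%) and small leucine-rich proteoglycans (53.8%) have the largest shares of lower members.

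Of the genes of inflammation and stress, Lrg1 and Pmaip1 were called, both lower, and most others passed no threshold. Lrg1, an acute phase glycoprotein made by neutrophils, liver and endothelium, read 5.88, 4.79, 5.47 and 4.72 in Mmp13-/- and 6.93, 7.01, 7.12 and 6.08 in WT tissue. No arrays overlapped, and the difference was -1.57 (standard error 0.20) with an adjusted p of 0.0496. Pmaip1, which encodes the pro-apoptotic protein Noxa, read 6.47, 6.73, 6.62 and 6.51 against 7.50, 7.34, 7.27 and 7.20 (-0.75, standard error 0.08, adjusted p = 0.0347). Both calls were lost in 6 of the 8 fits without 1 array, and in the fit of all 22 arrays the adjusted p was 0.481 and 0.648. A probe set of Steap4, a metalloreductase induced by inflammation, was called at -0.96 (adjusted p = 0.0497). There replicate 4 stood apart in both genotypes, at 3.33 and 4.81, where the other arrays read 5.81 to 5.91 and 6.56 to 6.78.

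Of 32 chemokine genes, 29 had a negative difference and 9 a negative one with an unadjusted p under 0.05 (28.1%), 0 the opposite, and the median was -0.26. The 9 became 5 without Mmp13-/- replicate 3 (median -0.17), or 15.6% against 5.27% of all genes. They became 3 in the fit of all 22 arrays (9.38%, against 2.96% of all genes). Examples were the eosinophil attractant Ccl11 (5.15, 5.28, 4.38 and 4.91 in Mmp13-/- against 6.46, 5.96, 5.84 and 5.58 in WT, -1.03, adjusted p = 0.184), the neutrophil attractant Cxcl5 (-0.59, adjusted p = 0.180) and the platelet chemokine Ppbp (-1.10, adjusted p = 0.298). Of these, only Ppbp had overlapping groups. Of 31 cytokines and acute inflammatory proteins 24 were negative, 8 were lower with an unadjusted p under 0.05 (25.8%, and 4 genes or 12.9% in the fit of all 22 arrays) and 1 was higher. Among the negative ones were Il6 (4.66, 4.03, 3.79 and 3.27 against 4.53, 5.61, 4.80 and 5.53, -1.18, standard error 0.32, adjusted p = 0.290) and the siderophore-binding lipocalin Lcn2 (-0.99, adjusted p = 0.139), and the higher one was Tnfaip3, an inhibitor of NF-kappaB signals (0.24, adjusted p = 0.337). Mmp13-/- replicate 1 lay within the WT range of Il6, and the difference was -0.82 in series 1 and -2.26 in series 2.

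Neutrophil markers were negative in 9 of 11 cases and lower with an unadjusted p under 0.05 in 6 (54.5%), with a median of -0.42. These 6 were S100a8, Csf3r, Ngp, the dim Mpo, and Mmp8 and Mmp9, which were also counted with the MMP genes. S100a9, Cxcr2 and Ltf were negative without passing, and Elane and Camp were positive. The count of 6 became 3 (27.3%) without Mmp13-/- replicate 3 and in the fit of all 22 arrays, and 4 (36.4%) without WT replicates 1 and 3. Of all genes, 5.27%, 2.96% and 5.79% were lower at that level in these fits. Macrophage markers did not follow. Of 16, 11 were positive, 1 passed the unadjusted threshold (Itgam, 0.26) and the median was 0.08, and their mean per array overlapped between the genotypes. Of 13 dendritic cell markers 11 were positive, 2 of them (Itgax and Batf3) with an unadjusted p under 0.05. Of 24 genes for leukocyte adhesion and traffic 5 were lower (20.8%) and 4 higher (16.7%) at that level. Ccr7, the receptor that guides dendritic cells and lymphocytes to lymph nodes, read 5.29, 5.54, 5.15 and 4.73 against 6.42, 6.16, 5.92 and 5.92 without overlap (-0.93, standard error 0.13, adjusted p = 0.0685). P-selectin (Selp), which catches rolling leukocytes on endothelium, had -0.81 (adjusted p = 0.122), and the integrin gene Itgax was higher (0.50, adjusted p = 0.213). Interferon-response genes depended on single arrays: 23 of 28 were negative and 3 lower with an unadjusted p under 0.05 (10.7%). In series 1 alone 19 were lower at that level (67.9%, against 6.36% of all genes). Without WT replicates 1 and 3 the median turned from -0.20 to 0.10.

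All 16 endothelial markers had a negative difference at 14 d. Of these 8 were lower with an unadjusted p under 0.05 (50%) and the median was -0.37. These became 4 (25%) and -0.24 without WT replicates 1 and 3, and 3 genes (18.75%) passed in the fit of all 22 arrays. Of all genes, 6.55%, 5.79% and 2.96% were lower at that level in these 3 fits. Plvap, of the diaphragms of fenestrated vessels, read 8.37, 8.04, 8.42 and 7.80 in Mmp13-/- and 8.56, 8.67, 9.41 and 8.59 in WT tissue (-0.65, adjusted p = 0.293), with WT replicate 3 well above the rest. Emcn (-0.66) and the transcription factor gene Sox17 (-0.49) were similar in size. The mean of the list was 7.69 on WT replicate 3 and 6.56 to 7.09 on the other arrays. Pericyte markers were negative in 8 of 8 cases (median -0.28), with Rgs5 at -0.72 (adjusted p = 0.227) and Abcc9 at -0.56 (adjusted p = 0.294). Only 2 had an unadjusted p under 0.05 (25%), and 0 did in the fit of all 22 arrays. Their mean was 7.65 on WT replicate 3 and 6.75 to 7.20 on the other arrays. At 7 d the medians of the endothelial and pericyte lists had the other sign (0.64 and 0.65) and at 21 d the same (-0.36 and -0.25). Lymphatic markers were positive in 6 of 6 cases with 0 past the unadjusted threshold, and their median of 0.45 became -0.0044 without Mmp13-/- replicate 3. The 29 angiogenic factors and receptors, Npy included, had 15 negative and 14 positive differences. With an unadjusted p under 0.05, 7 were lower (24.1%, against 6.55% of all genes) and 2 higher (6.90%, against 4.55%). In the fit of all 22 arrays 1 was lower (3.45%, against 2.96% of all genes) and 1 higher. Apart from Npy, Angpt1, the ligand that steadies vessels, had -0.29 (adjusted p = 0.323) and Notch4 -0.34 (adjusted p = 0.351). Dimmer probe sets had 0.085 for Angpt1, and -0.0625 and 0.0175 for Notch4. A probe set of the endothelin receptor gene Ednrb was called (-0.95, adjusted p = 0.0347), and both of its other probe sets had the same sign. On the called probe set the groups overlapped, and its call was lost in 4 of the 8 fits that left out 1 array. In the fit of all 22 arrays its adjusted p was 0.999.

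Globin transcripts were lower. The probe set shared by Hba-a1 and Hba-a2 read 10.84, 10.92, 10.52 and 10.13 in Mmp13-/- and 11.62, 11.92, 12.20 and 11.49 in WT tissue, and that shared by the beta-globin genes 10.36, 10.32, 10.10 and 9.87 against 10.99, 11.31, 11.54 and 11.17. Neither pair of groups overlapped. The differences were -1.21 and -1.09 (adjusted p = 0.0347 for both), and a second alpha-globin probe set gave -1.06 (adjusted p = 0.0472). Each of these calls was kept in only 1 of the 8 fits that left out 1 array. In the fit of all 22 arrays their adjusted p was 0.902, 0.999 and 0.942. Alas2, the haem synthesis enzyme of red cell precursors, had -0.73 (adjusted p = 0.183), again without overlap. The other erythroid markers did not follow as a set. Of the 8 listed, Alas2 included, 5 had a negative and 3 a positive difference, and the median was -0.085. With an unadjusted p under 0.05, 2 were lower (25%, against 6.55% of all genes) and 0 higher. A dim probe set of Hba-a1 alone (2.24 to 2.62 on all arrays) did not differ beyond its spread (0.05, adjusted p = 0.803).

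Of 27 growth factors and their binding proteins 20 were negative, 6 were lower with an unadjusted p under 0.05 (22.2%) and 2 higher. Besides Pdgfd, pleiotrophin (Ptn), a heparin-binding growth factor, read 6.37, 7.45, 7.88 and 7.38 in Mmp13-/- and 8.14, 8.38, 8.42 and 9.14 in WT tissue without overlap (-1.25, standard error 0.29, adjusted p = 0.225). A second probe set of Ptn had -1.175, and the dimmest had 0.0425. Igfbp6 had -0.63 (adjusted p = 0.310), but its sign was the other way in the pair of series 2 (0.13). The TGF-beta receptor genes Tgfbr2 (10.43, 10.28, 10.36 and 10.13 against 10.80, 10.89, 10.97 and 10.49, -0.49, adjusted p = 0.0877) and Tgfbr3 (-0.36, adjusted p = 0.169) were lower with an unadjusted p under 0.05, while the ligand gene Tgfb1 was higher at that level with overlapping groups (0.29, adjusted p = 0.335). The TGF-beta list of 25 genes had 2 members lower and 2 higher at that level (8% each, against 6.55% and 4.55% of all genes) and a median of -0.02. Of 23 Wnt ligands and antagonists 15 were negative, 6 were lower at that level (26.1%) and 0 higher. Sfrp2, a secreted modulator of Wnt signals, read 10.98, 10.55, 10.75 and 10.66 against 11.36, 11.37, 11.41 and 11.28 (-0.62, adjusted p = 0.0867). Wnt16 (-0.52) and the Wnt antagonist Dkk2 (-0.45) were lower at the unadjusted level. Rgs2, which ends G protein signals and limits responses to vasoconstrictors, was higher (9.83, 9.84, 10.07 and 9.64 against 9.32, 9.11, 9.06 and 9.54, 0.59, adjusted p = 0.197), and another of its 4 probe sets was called in the fit of all 22 arrays (0.81, adjusted p = 0.0350).

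Genes of cell division differed little. Of 27 cell cycle genes 19 were positive, 0 passed the unadjusted threshold and the median was 0.05. Of the apoptosis and inflammatory caspase genes 4 of 24 were lower at that level (16.7%) and 1 higher. Stxbp6, a regulator of vesicle fusion, read 3.40, 3.62, 3.27 and 3.62 in Mmp13-/- and 4.47, 4.75, 4.62 and 4.29 in WT tissue (-1.06, standard error 0.12, adjusted p = 0.0347). A second probe set of Stxbp6, of similar brightness, had only -0.225 (unadjusted p = 0.292, limma). Trarg1, which takes part in the traffic of the glucose transporter of fat and muscle, had -0.54 (adjusted p = 0.0497). Stxbp6 and Trarg1 both have low signals, and on the brightest probe set of each the groups did not overlap. The neural adhesion gene Chl1 read 7.03, 6.68, 6.24 and 6.48 against 8.38, 8.27, 7.59 and 7.36 (-1.29, standard error 0.22, adjusted p = 0.118), while 2 of its 4 probe sets had the other sign.

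Markers of epidermis, fat and muscle were set beside these differences. Of 23 keratinocyte markers 21 were negative, 5 with an unadjusted p under 0.05 (21.7%), and the median was -0.63. Without WT replicates 1 and 3 these became 12, 2 and -0.04. Desmoplakin (Dsp) read 2.24 to 2.37 on all Mmp13-/- arrays, 4.71 and 6.20 on WT replicates 1 and 3 and 2.31 and 2.77 on WT replicates 2 and 4 (-1.67, adjusted p = 0.442). Krt10 behaved alike (8.09 and 6.92 on the former WT arrays, 5.15 to 5.57 elsewhere). Dmkn, an epidermal secreted protein, did not follow these arrays and was lower on every Mmp13-/- array (6.70, 6.99, 5.26 and 7.24 against 8.38, 8.10, 7.95 and 7.91, -1.54, adjusted p = 0.234). The adipocyte gene Adipoq scattered from 2.52 to 8.51 with overlapping groups (-2.22, standard error 1.12), and it was -3.98 in series 1 and 3.05 in series 2. Skeletal muscle markers had a median of -0.14, which became 0.62 without Mmp13-/- replicate 3. The part of these markers in the other differences was not tested, beyond the fits without those arrays.

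Differences at 14 d were set beside those at 7 d (3 arrays of each genotype) and 21 d (4 of each). All arrays of 7 d belong to hybridization series 1 and all arrays of 21 d to series 2. Day and series therefore cannot be fully told apart in these comparisons. The series term in the fit does not remove an effect of series on the size of a genotype difference. Of the 26 probe sets called at 14 d, 17 had the same sign at 7 d and 22 at 21 d. With an unadjusted p under 0.05 as well these were 7 and 10, and 4 did so at both days: Mmp13 and the 3 called probe sets of Gpt2. Against a background of 3.61% of probe sets at that level at 7 d and 5.35% at 21 d, most of the matrix genes had no difference of that kind at 7 d. Mmp2 had 0.03 at 7 d and -0.40 at 21 d, Mmp3 0.77 and -0.43, Ccn5 0.27 and -0.36, and Lum -0.37 and -0.53. The change of the genotype difference itself was tested as an interaction in the fit of all 22 arrays. No probe set was called for 14 d against 7 d or for 14 d against 21 d (limma), and 1032 (2.29%) and 2965 (6.58%) had an unadjusted p under 0.05. Among the 26 these numbers were 10 and 12. For 14 d against 7 d the unadjusted p was 8.77e-05 for Mmp2, 0.000134 for Mmp3 and 0.00192 for Ccn5, with adjusted p-values of 0.790, 0.830 and 1, so that no difference can be called particular to 14 d.

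**Figure D5:**
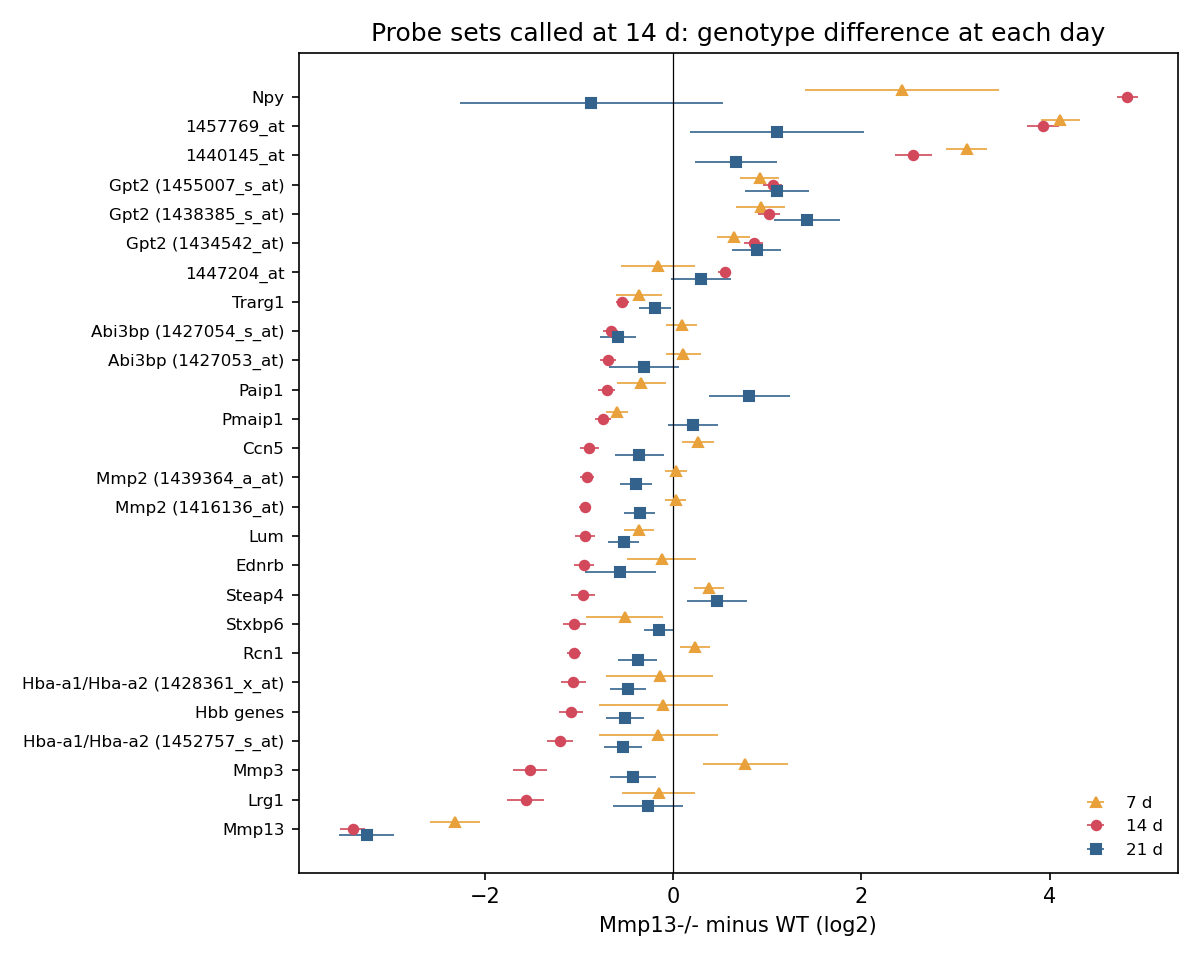
Genotype difference (Mmp13-/- minus WT, log2, bars are standard errors from a limma fit of each day) of the 26 probe sets called at 14 d, at 7 d (triangles), 14 d (circles) and 21 d (squares). Mmp13 and Gpt2 keep their side at all days, whereas Mmp3 (0.77 at 7 d, -1.52 at 14 d) and Npy (-0.87 at 21 d, 4.83 at 14 d) do not. All arrays of 7 d are of hybridization series 1 and all arrays of 21 d of series 2.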

How the data were processed

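RNA of granulation tissue was hybridized to 22 Affymetrix mouse arrays, of which the 8 of 14 d were compared here. The authors normalized the arrays with RMA (version not given in the sources used here), and the deposited values are log2 signals per probe set with 2 decimals, from 1.5 to 13.66 on these arrays. The files name no genome build. Apart from dropping 64 control probe sets, no filter was used. At most 3.50% of the values of any pair of arrays were equal. The number of arrays limits the precision.

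Mmp13-/- minus WT was fitted with lmFit and eBayes (limma 3.58.1, R 4.3.3) with hybridization series as a covariate (5 residual and 4.00 prior degrees of freedom). Benjamini-Hochberg adjustment ran over 45037 probe sets, with calls made at an adjusted p under 0.05. The steps were tested on simulated data. The change of the genotype difference between days was tested in a fit of all 22 arrays with 6 group means and series. The study's list threshold, an unadjusted p under 0.05 with an absolute log2 difference over 0.75, was counted as well.

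Gene names come from the platform annotation, in which 34945 probe sets have 1 gene, 932 several and 9160 none listed here, and 34741 of the first were found by Entrez ID in a RefSeq table of GRCm38.p6. Each gene is given by its brightest single-gene probe set. Named are the called genes, members of 37 gene lists (from the 3 of each with the smallest adjusted p), the genes that the study's text names from 14 d, and some others singled out after their values had been seen (called probe sets without a representative, Fmod, Kbtbd3, Dcun1d5, Col1a1, Col1a2, Col3a1, Acta2 and the MMP genes with a motif). Of the called probe sets, 1 of Paip1 (-0.71, adjusted p = 0.0466, limma) and a further unnamed 1 (0.545, adjusted p = 0.0497) are not described above. In both, the groups overlapped. H60a, which the study names, is left out because no probe set is annotated to it alone. The comparison, its members and the lists were chosen with earlier results of these data known, so counts over lists are descriptions. Promoter windows are those of RefSeq for GRCm38.p6.

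Alternatives were no series term, all 22 arrays in 1 fit, series 1 only, the replicate number as a block, centring, quantile normalization, leaving out dim probe sets, another variance prior and leaving out each array. The fit without WT replicates 1 and 3 together was chosen after seeing the data.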

Additional observations from a re-analysis of the deposited data

Results flagged for a closer look

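For 100 genes and probe sets given at 14 d, 200 groups of 4 arrays were examined, and in 19 of them 1 value stood far from the other 3 (Dixon's test of the gap to the nearest array). Chance alone would give about 1 in 20 groups, or 10, and no cause was tested. Replicate 4, the array of hybridization series 2, accounts for 14 of the 19. On Mmp13-/- replicate 4 the log2 signal was 9.25 for Mmp2, 12.21 for Col5a2, 10.21 for Col1a1, 13.46 for Col1a2, 7.18 for Tgfb1, 8.34 for Aspn, 3.33 for Vtn and 3.33 for the called probe set of Steap4, all below the rest of the group, and 9.03 for Ltbp2 and 2.31 for Mmp1a, above it. On WT replicate 4 it was 10.92 for Col1a1, 6.64 for Tgfb1, 5.17 for the called probe set of Ednrb and 4.81 for that of Steap4, all below. WT replicate 3 stood above the other WT arrays in the endothelial gene Plvap (9.41) and in Notch4 (6.91). WT replicate 1 was highest for the adipocyte gene Plin4 (4.95), WT replicate 2 lowest for Casp12 (6.97), and Mmp13-/- replicate 3 lowest for the erythroid gene Alas2 (3.69).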

How the results depend on the processing

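The number of called probe sets depended on the fit. It was 26, and became 4 without the hybridization term, 8 in the fit of all 22 arrays, 45 in series 1 only, 71 with a trended and robust variance prior, and 7 without WT replicates 1 and 3 together, a fit chosen after seeing the data. It was 30 with arrays centred on their medians, 25 after quantile normalization and 28 without dim probe sets. Leaving out 1 array at a time gave 7 (without WT replicate 2) to 45 (without replicate 4 of either genotype). With the replicate block, 3 were called. Same-numbered arrays of the genotypes deviated from their group means with r = 0.26, 0.24, 0.12 and 0.61, but -0.03, -0.14 and -0.07 among the 3 pairs within series 1, so the number followed the series, the labels give it no other meaning, and no array of series 1 is taken as paired.

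The 130 probe sets past the study's list threshold, without adjustment, became 217 in series 1 only and 197 without WT replicates 1 and 3, and 126 (without Mmp13-/- replicate 3) to 218 (without Mmp13-/- replicate 4) when 1 array was left out. Mmp13 was called in every fit, with differences of -3.49 to -3.28 without single arrays. The change of the genotype difference between days had 0 calls in each fit run, also without single arrays. No named gene that was called changed its sign in any fit. Of the 99 single genes and probe sets other than Mmp13, uncalled differences near 0 turned in Acta2 (-0.06 to 0.18 without single arrays), Mmp1a (-0.11 to 0.0159) and Mmp20 (-0.0641 to 0.0524, and 0.0233 in series 1 only).

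With 4 arrays of each genotype, single arrays decided most calls, and values of dim probe sets, of which 4 were called, lie near the lower end of the signal range.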
